A study of Rattus norvegicus with 4 samples.

Results

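The question here was whether the difference between a library labelled DMD and a library labelled WT was the same in a limb muscle and in the muscles that move the eye. The measure was the muscle by disease interaction of each gene, that is the log2 ratio of DMD over WT in the tibialis anterior (TA) minus the log2 ratio of DMD over WT in the extraocular muscles (EOM). A value above 0 means that the gene stood relatively higher in the library labelled DMD in TA than in EOM. All 4 libraries of the series entered it, 1 per muscle and disease state. Cells were chosen by fixed marker genes: at least 2 unique molecular identifiers (UMIs) of Cdh5 for endothelial cells, at least 3 of Rgs5 for mural cells, and at least 2 of Pax7 or of Myf5 for satellite cells. These gates held 4084, 990 and 535 of the 14233 kept cells of the series, and each gene's UMIs were summed within a gate and library and scaled to counts per 1000000 (CPM).

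The libraries were made from rats aged 12 months, from total cells of digested muscle, by 3' droplet sequencing. The groups are TA labelled wild-type (WT), TA labelled DMD, EOM labelled WT and EOM labelled DMD, and the labels name no treatment, strain or number of animals. The labels do not say which DMD allele the rats carried. Groups follow the disease state field of the labels, which the sample titles contradict in all 4 samples and the names of the deposited files follow, so "labelled" refers to that field throughout. Exchanging the labels in both muscles turns the sign of every interaction and leaves its size as it is, by construction.

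Duchenne muscular dystrophy arises from loss of dystrophin, which links the cytoskeleton of the myofibre to the matrix around it. Limb muscle undergoes repeated cycles of fibre death and regeneration in the disease, whereas the eye muscles largely escape this damage. Regeneration rests on satellite cells, the muscle stem cells, and it takes place beside capillaries lined by endothelial cells and wrapped by mural cells, the pericytes and vascular smooth muscle cells.

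With 1 library per group no difference has a replicate check, and no test across libraries was possible. Intervals in parentheses are 95% counting intervals. They cover counting error only, and not the differences between cells, animals or digestions. A gene was tested in a gate if it reached 100 CPM and 20 UMIs in at least 1 library, and it was called if its interaction was at least 1 in size on the log2 scale, a 2-fold difference between the muscles in their DMD over WT ratios. A gene that reached these limits in 1 library alone entered because it was high there, which favours a call. Counts and medians of gene lists include such genes and are descriptions only. Log2 values have 10 CPM added to each level, so they understate the change of low genes. Values for the 4 libraries are always in the order TA labelled WT, TA labelled DMD, EOM labelled WT, EOM labelled DMD.

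The kept cells numbered 2119, 8549, 1262 and 2303, with median depths of 2490, 1176, 3671.5 and 4540 UMIs. The endothelial gate held 1319, 1845, 463 and 457 cells, the mural gate 164, 596, 88 and 142, and the satellite gate 46, 145, 125 and 219. Median depths inside the gates were closer, at 2465 to 3026 UMIs in the endothelial and 3615.5 to 4036 in the mural gate, but ran from 2890 in TA labelled DMD to 7159 in TA labelled WT in the satellite gate. The gates were checked against markers of their cell type. In the endothelial gate 5 endothelial markers summed to 4557 to 6188 CPM, in the mural gate 7 mural markers to 4782 to 10098 CPM, and in the satellite gate 7 satellite markers to 2124 to 3878 CPM. In the gates of other cells the endothelial list reached at most 1285 CPM and the satellite list at most 1036 CPM, both in the mural gate of TA labelled DMD, and the mural list at most 606 CPM. Cells that fell in a second gate or held UMIs of another lineage made up 4.54% to 11.3% of the endothelial, 7.95% to 21.8% of the mural and 5.48% to 17.2% of the satellite gate, with the highest share in TA labelled DMD each time. Between 1 and 10 cell barcodes were shared by any pair of libraries. Dmd, the dystrophin gene, stood at 29.8, 25.1, 26.6 and 21.7 CPM over all kept cells and at 121, 78.2, 61.6 and 67.2 CPM in the satellite gate, where it was not called (interaction -0.67, -1.39 to 0.05). It was below the limits for testing in the mural gate (45.5, 24.2, 55.0 and 26.8 CPM). A 3' tag can lie outside an altered part of that gene, so these levels check no label.

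In the endothelial gate, 95 of 2086 tested genes were called higher in TA (4.55%) and 70 were called lower (3.36%). In the mural gate 57 of 2055 genes were called higher (2.77%) and 77 lower (3.75%), and this split turned to 76 higher and 67 lower when libraries were scaled by the median of ratios. In the satellite gate 124 of 1958 genes were called higher (6.33%) and 105 lower (5.36%). The median interaction of all tested genes lay near 0, at -0.03, -0.03 and 0.01. Each muscle on its own also had genes that differed between labels by at least 1 log2 unit. In the endothelial gate 192 genes stood higher with the DMD label in TA (9.2%) and 108 lower (5.18%), against 111 higher (5.32%) and 47 lower (2.25%) in EOM. In the mural gate these were 189 (9.2%) and 109 (5.3%) in TA and 148 (7.2%) and 55 (2.68%) in EOM. In the satellite gate they were 115 (5.87%) and 105 (5.36%) in TA and 62 (3.17%) and 44 (2.25%) in EOM. The plot of the change in TA against the change in EOM shows how the called genes lie.

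**Figure D1:**
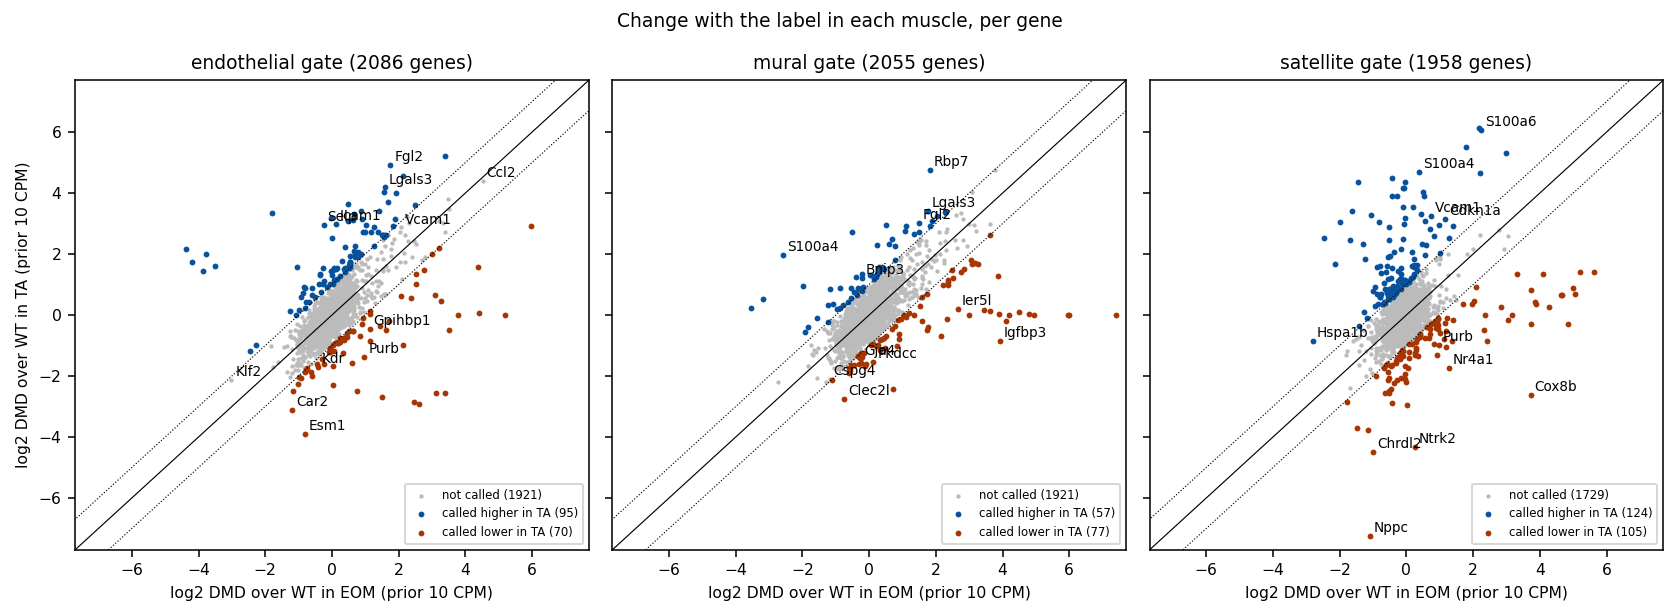
Each point is a tested gene, with the log2 ratio of DMD over WT in EOM on the x axis and in TA on the y axis, in the endothelial, mural and satellite gates. The solid line marks equal ratios in both muscles and the dotted lines mark an interaction of 1 in size. Genes called higher in TA are blue (95, 57 and 124), genes called lower are red-brown (70, 77 and 105).

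Most endothelial genes called higher differed between labels in TA, and in the same direction in EOM or hardly there. Of the 95, 43 went the same way in both muscles by at least 0.5 log2 units each, 30 reached 1 in TA with under 0.5 in EOM, 2 reached 1 in EOM alone and 14 went opposite ways. For the 124 satellite genes called higher these counts were 18, 43, 3 and 37. The size of the DMD over WT ratio was larger in TA than in EOM for 72.7% of called endothelial genes, 54.5% of called mural genes and 72.1% of called satellite genes, beside 60.5%, 55.6% and 58.2% of all tested genes. A gene's sum can come from few cells, so the number of cells that held 50% of its UMIs in its highest library was counted. In the endothelial gate 34 of the 165 called genes had 50% of their UMIs in under 5 cells, in the mural gate 36 of 134 and in the satellite gate 49 of 229. Among those called lower, 18 of 24 endothelial, 26 of 28 mural and 27 of 28 satellite genes of this kind peaked in EOM labelled DMD. Among those called higher, 19 of 21 satellite genes of this kind peaked in TA labelled DMD, and 8 of 10 endothelial and 7 of 8 mural genes in EOM labelled WT. With these genes left out, the ratio was larger in size in TA for 84.7% of called endothelial, 70.4% of mural and 79.4% of satellite genes. No such share was computed over all tested genes.

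The leukocyte adhesion genes Selp and Icam1 stood higher in endothelial cells with the DMD label in TA, while their EOM levels were close to each other. Selp, which encodes P-selectin, the receptor on which leukocytes begin to roll, stood at 8.05, 130.0, 31.2 and 24.6 CPM, and its interaction was 3.21 (2.69 to 3.71). Icam1, the ligand of leukocyte integrins, stood at 6.44, 121, 77.3 and 84.3 CPM, with an interaction of 2.88 (2.47 to 3.28). Both thus were lowest in TA labelled WT and highest in TA labelled DMD, by 16.1-fold (11.2 to 24.1) for Selp and 18.8-fold (12.5 to 29.5) for Icam1, while the EOM libraries lay between them. In EOM labelled WT and EOM labelled DMD 1 and 2 cells held 50% of the Selp UMIs, against 37 cells in TA labelled DMD, so its EOM levels rest on few cells. Cells with at least 1 UMI of Selp made up 0.531%, 12.5%, 1.08% and 1.97% of the gate. After thinning each cell to 1000 UMIs the shares were 0.0794%, 5.41%, 0.873% and 0.895%, beside 0%, 1.62%, 0% and 0% of mural cells. For Icam1 the thinned shares were 0.397%, 6.03%, 1.97% and 5.15%. By share of cells Icam1 thus also stood higher with the DMD label in EOM, which its level did not show, and mural cells had higher shares throughout (5.06%, 16.6%, 3.41% and 9.15%).

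Vcam1, a further adhesion gene, did not reach the call. It stood at 11.5, 148, 14.9 and 93.8 CPM, higher with the DMD label in both muscles, and its interaction was 0.81 (0.32 to 1.32). The venous transcription factor Nr2f2 likewise stood higher with the DMD label in both muscles, at 10.7, 101, 17.0 and 122 CPM, with an interaction of 0.12 (-0.36 to 0.62). Plvap, the diaphragm protein of fenestrated and venular endothelium, stood at 109.8, 697, 51.7 and 172 CPM and was just called at 1.0 (0.65 to 1.35). In EOM labelled DMD 3 cells held 50% of the Vcam1 UMIs and 7 cells those of Nr2f2. Without cells that held a UMI of fibroblast, Schwann, MHC class II, mast or lymphatic markers, the interactions were 2.34 for Vcam1, 1.67 for Nr2f2 and 1.69 for Plvap. This setting was chosen after seeing the data. Over all settings Vcam1 ran from 0.54 to 2.34, Nr2f2 from -0.05 to 1.67 and Plvap from 0.81 to 2.50. Plvap lost its call at most 10% mitochondrial UMIs (0.81) and with a prior of 1 CPM (0.94). Of the 14 genes written for venous and activated endothelium 8 were tested, with a median interaction of 0.69 beside -0.03 over all tested genes. Among the 8, 3 were called higher (Selp, Icam1 and Plvap) and 0 lower, beside 4.55% and 3.36% of all tested genes. Selp, Icam1 and Vcam1 reached 100 CPM in TA labelled DMD alone, so their entry to the list favoured a higher interaction. The median log2 ratio of the list was 2.49 in TA and 0.05 in EOM, and medians over genes need not subtract to the median interaction.

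The RefSeq promoters of Icam1 and Vcam1 on build GRCr8, from 250 bases before to 50 bases after the annotated start, are shown because these adhesion genes differed in their EOM ratios. Capitals mark a kappaB-like string, the kind of sequence NF-kB binds, as GGAANTTCC for Icam1 (chr8:27829595-27829894, plus strand, first base 218 bases before the start) and GGGNTTTCC for Vcam1 (chr2:206742734-206743033, minus strand, 93 bases before the start), on either strand.
Icam1: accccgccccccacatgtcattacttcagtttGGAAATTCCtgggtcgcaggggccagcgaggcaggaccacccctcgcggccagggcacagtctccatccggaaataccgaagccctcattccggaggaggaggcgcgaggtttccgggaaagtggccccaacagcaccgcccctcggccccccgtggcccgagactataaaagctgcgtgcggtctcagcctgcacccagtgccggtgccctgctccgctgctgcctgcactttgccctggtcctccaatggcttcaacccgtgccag
Vcam1: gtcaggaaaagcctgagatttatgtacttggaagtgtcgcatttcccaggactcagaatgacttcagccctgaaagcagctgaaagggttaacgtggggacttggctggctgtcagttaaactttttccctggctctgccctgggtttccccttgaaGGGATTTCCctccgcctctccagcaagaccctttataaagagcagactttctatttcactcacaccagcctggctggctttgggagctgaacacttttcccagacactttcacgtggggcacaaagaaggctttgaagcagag
GGAANTTCC occurs in 0.872% and GGGNTTTCC in 1.56% of 33469 rat promoters of this length. Both strings were chosen after the sequences had been read, and a longer NF-kB form, which 1.53% of promoters hold, occurred in 0 of the 8 list members matched to the promoter table.

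Fgl2, Lgals3 and Capg were among the endothelial genes with the highest interactions. Fgl2, a prothrombinase and secreted immune regulator, stood at 26.0, 1073, 63.1 and 237 CPM and its interaction was 3.15 (2.79 to 3.51). Galectin-3, encoded by Lgals3, stood at 22.8, 587, 68.8 and 227 CPM (interaction 2.60, 2.23 to 2.96), and Capg, which caps actin filaments, at 22.8, 314, 73.0 and 120.4 CPM (interaction 2.65, 2.27 to 3.03). For all 3 genes TA labelled DMD was the highest library, EOM labelled DMD the next, and TA labelled WT the lowest. The Fgl2 ratio was 41.2-fold (33.7 to 50.9) in TA and 3.75-fold (2.99 to 4.76) in EOM. After thinning, 1.27%, 43.1%, 1.75% and 12.5% of endothelial cells had a UMI of Fgl2, beside 0%, 12.0%, 0.800% and 2.28% of satellite cells. Macrophage markers, 7 genes, summed to 17.4, 127.2, 213 and 318 CPM in the gate, with C1qa and C1qb at 0 in TA labelled WT. Without cells of another gate or lineage the interactions were 2.23 for Fgl2, 2.20 for Lgals3 and 2.68 for Capg.

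Other endothelial genes named for their high interaction included Mt2A, a metallothionein that binds zinc and copper (6.98, 136, 13.5 and 26.1 CPM, interaction 2.48, 1.94 to 3.03), and Angptl4, an inhibitor of lipoprotein lipase (5.91, 159, 9.22 and 40.7 CPM, interaction 2.01, 1.49 to 2.55). The methyltransferase gene Inmt had 2, 963, 3 and 58 UMIs and an interaction of 2.01 (1.60 to 2.53), the ratio in TA being 236-fold (65.2 to 1953). The transcription factor Myc was the 1 called gene of 15 tested immediate early genes, at 36.0, 332, 46.8 and 127 CPM (interaction 1.62, 1.22 to 2.01). With 4.55% of all tested endothelial genes called higher, 1 call says nothing particular about the immediate early list. Chemokine genes differed from each other. Ccl2, which attracts monocytes, was higher with the DMD label in both muscles by similar ratios, at 8.05, 372, 12.1 and 497 CPM (interaction -0.12, -0.58 to 0.36). Its neighbour in function Ccl7 stood at 0.537, 383, 6.38 and 162 CPM (interaction 1.83, 1.41 to 2.30) on 2, 2910, 9 and 322 UMIs. In EOM labelled DMD 5 cells held 50% of the Ccl2 UMIs and 2 cells those of Ccl7, against 32 and 39 cells in TA labelled DMD. The alarmin Il33 was called as well, at 73.6, 299.6, 99.2 and 167 CPM (interaction 1.19, 0.88 to 1.5). Without the fibroblast, Schwann, MHC class II, mast or lymphatic positive cells Ccl2 had an interaction of 1.14 and Ccl7 of 3.69. Over all settings Ccl2 ran from -0.39 to 1.14 and Ccl7 from 1.19 to 4.52.

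Genes of the VEGF response and of tip cells, the leading cells of a growing vessel, stood lower with the DMD label in TA than in EOM. Esm1, a secreted proteoglycan of tip cells, stood at 489, 23.4, 175 and 95.9 CPM with an interaction of -3.09 (-3.40 to -2.79). In TA the level was 20.9-fold (17.9 to 24.5) lower with the DMD label and in EOM 1.83-fold (1.51 to 2.22) lower. The share of cells with a UMI of Esm1 after thinning was 24.4%, 1.82%, 13.3% and 7.83%, beside 0%, 1.08%, 0% and 2.11% of mural cells. TA labelled WT was thus the highest and TA labelled DMD the lowest library, with the EOM libraries in between.

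The receptors of VEGF had interactions in the same direction and of smaller size. Kdr, the main signalling receptor of endothelium, stood at 1305, 394, 930.1 and 697 CPM (interaction -1.29, -1.42 to -1.16), and Flt1, which binds VEGF without passing on much of its signal, at 1879.9, 1019, 1682 and 1991 CPM (interaction -1.12, -1.21 to -1.03). Cxcr4, the chemokine receptor of tip cells, stood at 389.8, 158, 133 and 171 CPM (interaction -1.59, -1.86 to -1.32), and the Notch ligand Dll4 at 489, 203, 395 and 382 CPM (interaction -1.18, -1.36 to -1.0). In TA all 4 genes were lower with the DMD label, by 3.31-fold, 1.84-fold, 2.46-fold and 2.41-fold. The EOM ratios of Cxcr4 and Flt1 pointed up, at 0.34 and 0.24 log2 units, and those of Kdr and Dll4 were -0.41 and -0.04. Of the 15 genes written for the VEGF response 7 were tested. Among them 0 were called higher and 5 lower, beside 4.55% and 3.36% of all tested genes, with a median interaction of -1.18. Across the alternative settings that median stayed between -1.45 and -1.09.

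Arterial and capillary genes were called in part, beside 4.55% of all tested genes called higher and 3.36% lower. Among 8 tested arterial genes 3 were called lower (Dll4, the ephrin gene Efnb2 at -1.02, and the phosphatase gene Alpl at -1.25) and 0 higher, with a list median of -0.58. Among 9 tested capillary genes 2 were called lower, Kdr and Gpihbp1, and the list median was -0.46. Gpihbp1, which carries lipoprotein lipase to the capillary lumen, differed mainly in EOM. It stood at 1165, 849.6, 537 and 1190.4 CPM, higher with the DMD label in EOM by 2.22-fold (2.04 to 2.41) and lower in TA (interaction -1.59, -1.72 to -1.46). Nrarp, a Notch feedback gene, went opposite ways at 847, 581, 793 and 1225 CPM (interaction -1.16, -1.28 to -1.04). Outside the lists, the carbonic anhydrase gene Car2 stood at 697, 71.4, 266 and 111 CPM (interaction -1.93, -2.19 to -1.67) and the secreted kinase gene Pkdcc at 267, 46.7, 111 and 114 CPM (interaction -2.33, -2.65 to -2.02). Pkdcc thus differed in TA alone, with EOM levels that differed by less than counting error.

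**Figure D2:**
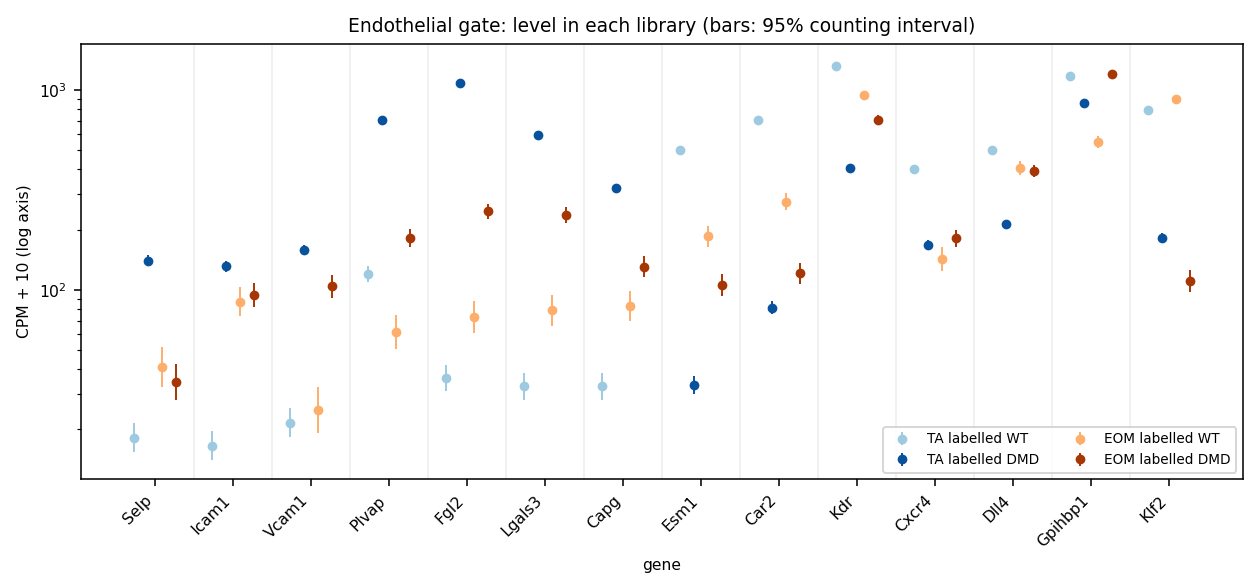
Level of 14 endothelial genes in each library, as CPM plus 10 on a log axis, with 95% counting intervals. Selp and Icam1 are lowest in TA labelled WT and highest in TA labelled DMD, Esm1 and Kdr are lowest in TA labelled DMD, and Klf2 is low in both libraries labelled DMD.

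Some other endothelial lists had no called member. Klf2, the flow-responsive transcription factor, stood at 781, 172, 885 and 101 CPM, lower with the DMD label by 4.54-fold (4.26 to 4.85) in TA and 8.77-fold (7.55 to 10.2) in EOM, and its interaction was 0.89 (0.67 to 1.11). None of 6 tested flow genes, 15 interferon genes, 9 MHC class I genes, 11 heat shock genes, 10 basement membrane genes and 27 respiratory chain genes was called, that is 0 called higher and 0 lower in each list. The interferon list had a median of -0.46 and the others between -0.22 and 0.20. Over all tested genes 4.55% were called higher and 3.36% lower, so a short list can hold 0 calls. A count of 0 calls does not show that the muscles act alike.

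All 5 tested MHC class II genes were called higher and 0 lower, beside 4.55% and 3.36% of all tested genes. None of them met the limits for naming. These asked for a level at least 0.5 times that outside the gate and for 5% of gated cells positive. Each of the 5 was highest in EOM labelled WT, where 1 cell held 50% of its UMIs. The fibroblast markers, 8 genes, summed to 128 CPM in the endothelial gate of TA labelled WT (Pdgfra and Lum at 0) and to 2622, 1843 and 5749 CPM in the other libraries. Schwann markers reached 2158 CPM and mast cell markers 472 CPM in EOM labelled DMD, where the other libraries had at most 337 and 33.3 CPM, and lymphatic markers 2603 CPM against at most 795 CPM. Erythroid genes summed to 7404, 1032, 452 and 2192 CPM. Without cells positive for fibroblast, Schwann, MHC class II, mast or lymphatic markers the counts were 92 higher and 59 lower, of which 62 and 43 were shared with all gated cells. There the interactions of Esm1, Kdr, Selp and Icam1 were -3.01, -1.27, 3.0 and 3.43. Phlda3 (-1.89) and Cnp (-1.80), both called lower, each had -0.73 there, and 5 and 4 cells of EOM labelled DMD held 50% of their UMIs.

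In mural cells few genes of contraction or pericyte identity reached the size of a call between muscles. The smooth muscle actin gene Acta2 stood at 1703, 1305, 1997 and 1613 CPM (interaction -0.08, -0.23 to 0.08) and the smooth muscle myosin gene Myh11 at 598, 295, 625 and 307 CPM (interaction 0.01, -0.29 to 0.31). Myh11 was lower with the DMD label by 2.02-fold (1.80 to 2.27) in TA and 2.04-fold (1.71 to 2.43) in EOM. Of 11 tested contraction genes 0 were called higher and 0 lower (median -0.08), beside 2.77% and 3.75% of all tested mural genes. In this list 1 gene stood lower with the DMD label by at least 1 log2 unit in TA and 2 in EOM. The subunits of the pericyte potassium channel, Abcc9 (1716, 1112, 2388 and 1539 CPM, interaction 0.01, -0.14 to 0.16) and Kcnj8 (1639, 959, 2809.6 and 1944 CPM, interaction -0.24, -0.38 to -0.09), were lower with the DMD label in both muscles. Myh11 depended on the gate and the cell filter, with -1.37 in cells gated by Notch3 and -1.08 at most 10% mitochondrial UMIs, and Acta2 had -0.99 in the Notch3 gate.

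Of 16 genes written for pericyte identity 15 were tested, 0 were called higher and 1 lower. That is near the 3.75% of all tested mural genes called lower, so the count says nothing particular about the list. The list medians were -1.22 in TA and -0.67 in EOM, with a median interaction of -0.49. The called gene was Gja4, the gap junction gene of connexin 37, at 609, 221, 783 and 651 CPM (interaction -1.16, -1.42 to -0.90), and the proteoglycan gene Cspg4 (NG2) came next at 322, 67.4, 357 and 152 CPM (interaction -0.92, -1.34 to -0.50). Gja4 was detected after thinning in 42.4%, 20.4%, 50% and 45.1% of mural cells, beside 3.57%, 4.34%, 1.97% and 3.13% of endothelial cells. The receptor Notch3 was lower with the DMD label in both muscles (209, 89.0, 249.6 and 116 CPM, interaction -0.11, -0.58 to 0.37), while its target Heyl was lower mainly in TA, at 361, 130.3, 325 and 272 CPM (interaction -1.16, -1.53 to -0.78). Gja4 lost its call in the stricter gate (-0.89) and Heyl too (-0.79).

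Further mural genes called lower encode signalling and matrix proteins. The counts below stand beside 3.75% of all tested mural genes called lower and 2.77% called higher. The nitric oxide receptor subunit Gucy1a1 stood at 728, 298, 545 and 456 CPM (interaction -1.01, -1.29 to -0.73) and the angiotensin receptor Agtr1a at 199, 56.8, 66.4 and 46.0 CPM (interaction -1.20, -1.89 to -0.51), the 2 genes called of 6 tested in the guanylate and adenylate list (median -0.62). The laminin chains Lamb1 (189, 80.0, 64.1 and 83.1 CPM, interaction -1.48, -2.13 to -0.83) and Lama2 (162, 58.0, 131 and 102 CPM, interaction -1.02, -1.58 to -0.46) were the 2 of 10 basement membrane genes called lower. Clec2l, a lectin-like membrane protein gene, stood at 161, 15.2, 80.1 and 43.5 CPM (interaction -2.01, -2.71 to -1.31) and Pkdcc at 248, 78.7, 181 and 198 CPM (interaction -1.66, -2.13 to -1.20). In the other direction Bnip3, a mitophagy gene of the hypoxia response, was the 1 called of 8 tested glycolysis and hypoxia genes, at 83.9, 209.9, 105 and 89.5 CPM (interaction 1.44, 0.82 to 2.06). A single call says nothing particular about the hypoxia list. Gucy1a1, Agtr1a and Lama2 lost their calls in the stricter gate (-0.73, -0.96 and -0.72). In cells gated by Notch3 Agtr1a had -0.41 and Lama2 -0.26. Agtr1a and Lamb1 reached 100 CPM in TA labelled WT alone, so their entry to the lists favoured a call lower. Clec2l kept its call in the settings tried (-2.61 to -1.22), while Pkdcc had -0.78 after thinning, and Lamb1 and Bnip3 came to just under 1 in size in 1 setting each.

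Fgl2, Lgals3 and Angptl4, called higher in endothelial cells, were called higher in mural cells too. Fgl2 stood at 164, 1406, 185 and 537 CPM (interaction 1.54, 1.12 to 1.97), Lgals3 at 31.3, 434, 32.1 and 133 CPM (interaction 1.66, 0.84 to 2.48) and Angptl4 at 56.9, 511, 153 and 219.8 CPM (interaction 2.47, 1.91 to 3.03). Mural TA labelled DMD held 102 cells that passed another gate too, of 596, and endothelial markers summed to 206.3, 1285, 114 and 741 CPM there. Without cells of another gate or lineage Fgl2 had an interaction of 1.28 and Lgals3 of 1.31. In the stricter gate they were 0.21 and 0.99, so neither kept its call. Angptl4 turned to -0.30 in thinned cells and was 2.58 in the stricter gate. The retinol carrier gene Rbp7 had 5, 1400, 0 and 20 UMIs (interaction 2.92, 2.12 to 4.03), with 4 cells holding 50% of the UMIs in TA labelled DMD. Its EOM level was at least 3.72-fold higher with the DMD label, against the limit of 3 counts, so the fitted interaction is no bound.

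Other named mural genes rested on few cells or on the gate. Gem, a small GTPase (45.5, 269.6, 135 and 211 CPM, interaction 1.73, 1.12 to 2.33), Ifi27l2b (131, 792, 435 and 703 CPM, interaction 1.83, 1.46 to 2.20) and the ligand gene Bmp4 (8.54, 114, 18.3 and 49.8 CPM, interaction 1.67, 0.67 to 2.63) were called higher. In cells gated by Notch3 in place of Rgs5 they had 0.17, 0.13 and 0.38. S100a4 stood at 22.8, 118, 490.0 and 74.1 CPM (interaction 4.53, 3.87 to 5.19), but 1 cell held 50% of the UMIs of EOM labelled WT, and the interaction was -0.71 in the stricter gate. Mt1, a metallothionein gene, stood at 75.4, 144, 272 and 116 CPM (interaction 2.02, 1.49 to 2.56), with 3 cells holding 50% in EOM labelled WT and -1.84 in the Notch3 gate. Igfbp3 stood at 145, 76.4, 55.0 and 970.1 CPM (interaction -4.76, -5.38 to -4.16), and 1 cell held 50% of the UMIs of EOM labelled DMD. Ier5l, also called lower, stood at 96.7, 112, 29.8 and 243 CPM (interaction -2.48, -3.22 to -1.74) with 16 such cells, while Rarres1 (-2.16) had 2 and Ecrg4 (-1.78) 5. Mast cell markers summed to 2419 CPM in the mural gate of EOM labelled DMD and to at most 16.4 CPM in the other libraries, and macrophage markers to 823 CPM against at most 59.5 CPM. Leaving out the cells positive for either gave 56 genes higher and 63 lower.

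In satellite cells Nppc, Ntrk2 and Chrdl2 were at or near 0 in TA labelled DMD and clearly present in the other libraries. Nppc, which encodes C-type natriuretic peptide, stood at 5933, 29.1, 7313 and 3438 CPM with an interaction of -6.16 (-6.67 to -5.65). In TA the level was 204-fold (130.0 to 339) lower with the DMD label and in EOM 2.13-fold (2.05 to 2.21) lower. The share of cells with an Nppc UMI was 95.7%, 4.0%, 88.8% and 74.0% after thinning, beside at most 0.873% of endothelial and 1.14% of mural cells in any library. Thus 3 libraries had the gene in most gated cells, and TA labelled DMD had it in few.

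Ntrk2, the receptor of brain-derived neurotrophic factor, had 73, 1, 103 and 210 UMIs, or 220.3, 1.53, 132 and 158 CPM. Its interaction was -4.56 (-5.06 to -3.74), and the TA ratio was 144-fold (25 to 5749) lower with the DMD label on a single UMI. The EOM levels of Ntrk2 were close to each other. Chrdl2, an antagonist of bone morphogenetic proteins, stood at 317, 4.60, 629 and 309 CPM (interaction -3.48, -4.01 to -2.72), lower in TA by 68.9-fold (22.9 to 339) on 3 UMIs and in EOM by 2.03-fold (1.78 to 2.32). As a plain difference of CPM the loss of Chrdl2 was of like size in both muscles (TA minus EOM 7.13 CPM), since EOM labelled WT began at the highest level. After thinning, 0 of 125 cells of TA labelled DMD had a UMI of Ntrk2 or Chrdl2, which allows a share of up to 2.40% of cells with a UMI at this depth and sets no limit on cells that express the gene, beside 15.2% and 26.1% of 46 cells in TA labelled WT.

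Genes tied to satellite cell quiescence, the resting state, followed this only in part. Of 19 written 14 were tested, with a median interaction of -0.39 beside 0.01 over all tested genes. Among the 14, 4 were called lower and 1 higher, beside 5.36% and 6.33% of all tested genes. Called lower were Chrdl2, the Notch target Heyl at 278, 55.2, 254 and 171 CPM (interaction -1.59, -2.17 to -1.02), the calcitonin receptor Calcr at 226, 69.0, 119 and 93.6 CPM (interaction -1.26, -1.88 to -0.64), and the growth factor antagonist Spry1 at 585, 552, 375 and 732 CPM (interaction -1.03, -1.34 to -0.72). Heyl and Calcr were lower with the DMD label in TA, while Spry1 differed only in EOM, where it was higher. Chodl, a surface marker of satellite cells, stood at 1717, 741, 925 and 699.6 CPM and was not called (interaction -0.80, -1.03 to -0.58). Vcam1, the 1 member called higher, stood at 36.2, 434, 62.9 and 112 CPM (interaction 2.53, 1.72 to 3.35). In thinned cells Heyl and Spry1 lost their calls (-0.85 and -0.53).

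Signalling through the thyrotropin receptor and cyclic AMP had 2 called members of 6 tested (18 written), both lower, and a median of -0.84. The share of all tested satellite genes called lower was 5.36%. The receptor gene Tshr stood at 51.3, 9.20, 169 and 122 CPM on 17, 6, 132 and 161 UMIs (interaction -1.23, -2.07 to -0.28), higher in the EOM libraries than in those of TA. Its call was lost with a prior of 50 CPM (-0.42), and as a plain difference of CPM its sign turned (TA minus EOM 5.79 CPM). Nr4a1, an orphan nuclear receptor and immediate early gene, went opposite ways. It stood at 673, 193, 164 and 409.8 CPM, 3.48-fold (2.79 to 4.37) lower with the DMD label in TA and 2.49-fold (2.05 to 3.05) higher in EOM, an interaction of -3.02 (-3.43 to -2.61). TA labelled WT and EOM labelled DMD were thus its high libraries. In other settings the Nr4a1 value lay between -4.25 and -2.37.

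The RefSeq promoter of Nr4a1 on GRCr8 (chr7:134259888-134260187, plus strand, 250 bases before to 50 after the start) is shown because the gene is a known target of cyclic AMP. Capitals mark TGCGTCA, a variant of the cyclic AMP response element, searched on both strands and chosen after the sequence had been read.
Nr4a1: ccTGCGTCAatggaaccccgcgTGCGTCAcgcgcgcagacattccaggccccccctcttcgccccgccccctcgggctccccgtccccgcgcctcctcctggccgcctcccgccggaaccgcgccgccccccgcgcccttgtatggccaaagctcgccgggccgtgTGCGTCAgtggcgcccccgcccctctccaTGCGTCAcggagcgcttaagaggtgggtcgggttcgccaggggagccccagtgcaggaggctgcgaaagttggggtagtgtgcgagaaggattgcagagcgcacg
It has 4 matches, which begin 248, 228, 84 and 55 bases before the start, and 1.90% of the 33469 promoters hold at least 1. The full palindrome TGACGTCA is in 1.83% of promoters and in 4 of the 13 immediate early genes matched to the table, and Nr4a1 is not among those 4. A match is a string of letters and not evidence of binding.

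The cell cycle inhibitor genes Cdkn1a and Cdkn2a stood highest in TA labelled DMD. Cdkn1a, which encodes p21, stood at 30.2, 348, 52.6 and 129.8 CPM (interaction 2.0, 1.15 to 2.85), higher with the DMD label by 11.5-fold (6.16 to 24.4) in TA and 2.47-fold (1.75 to 3.56) in EOM. Cdkn2a, the Ink4a/Arf gene, had 1, 78, 1 and 7 UMIs (interaction 2.88, 1.69 to 3.72), and 31 cells of TA labelled DMD held at least 1. Of 13 tested genes of senescence and arrest (20 written) 5 were called higher and 1 lower, beside 6.33% and 5.36% of all tested genes. Cdkn2a reached 100 CPM in TA labelled DMD alone, so its entry to the list favoured a call higher. The list median was 0.72. Those called higher included Timp1 (109, 361, 172 and 219 CPM, interaction 1.31, 0.76 to 1.88) and Gadd45b (1.41), and Igfbp5 was called lower (-1.43). Cdkn1c, the p57 gene, was called at 1.99, but 1 cell held 50% of its UMIs in TA labelled DMD, and the value was -1.07 in cells gated by Chodl.

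**Figure D3:**
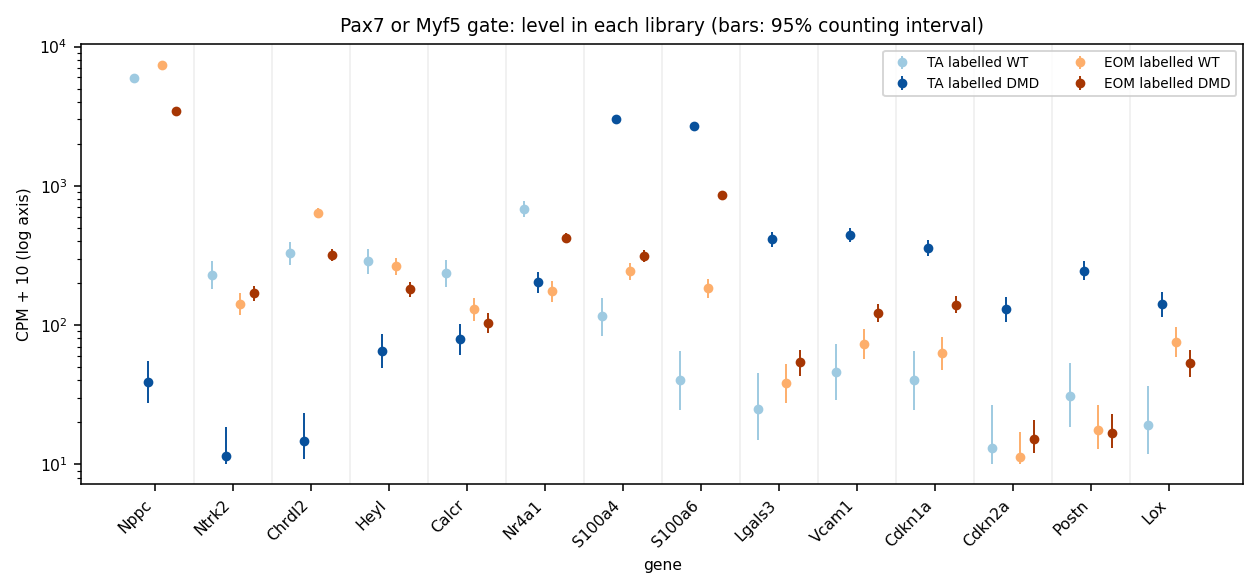
Level of 14 genes in the Pax7 or Myf5 gate of each library, as CPM plus 10 on a log axis, with 95% counting intervals. Nppc, Ntrk2 and Chrdl2 are low in TA labelled DMD alone, while S100a4, Lgals3, Vcam1, Cdkn1a and Cdkn2a are highest there.

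Calcium-binding genes of the S100 family and matrix genes were called higher in number. S100a4 stood at 106, 2998, 232 and 304 CPM (interaction 4.33, 3.82 to 4.86) and S100a6 at 30.2, 2682, 173 and 854 CPM (interaction 3.83, 3.08 to 4.59), and Lgals3 at 15.1, 403, 28.2 and 43.8 CPM (interaction 3.55, 2.52 to 4.50). S100a4 was detected after thinning in 4.35%, 72.8%, 3.20% and 8.68% of satellite cells, beside 1.59%, 8.30%, 1.75% and 1.79% of endothelial cells. The cytoskeletal gene Vim stood at 1461, 8957, 1242 and 2216 CPM (interaction 1.78, 1.61 to 1.95). Of 11 tested members of the S100 and calcium-binding list 5 were called higher and 0 lower, with a median of 0.99. Lgals3, a member, reached 100 CPM in satellite cells of TA labelled DMD alone, so its entry there favoured a call higher. The same list had 5 of 12 higher and 0 lower in endothelial cells (median 0.74) and 3 of 12 higher and 0 lower in mural cells (median 0.76). Over all tested genes of the endothelial, mural and satellite gates the medians were -0.03, -0.03 and 0.01. The shares called higher there were 4.55%, 2.77% and 6.33%. S100a6 itself was not called in endothelial cells, at 948, 2616, 1195 and 3488 CPM (interaction -0.08, -0.17 to 0.01), where 6 cells of EOM labelled DMD held 50% of its UMIs. Without endothelial cells that held fibroblast, Schwann, MHC class II, mast or lymphatic UMIs its interaction was 1.55. That setting was chosen after seeing the data. In the satellite gate at most 10% mitochondrial UMIs gave 1.43 for S100a4, and gating by Chodl gave 0.71 for S100a6.

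Matrix genes were called higher in 7 of 11 tested of the fibrillar list (23 written) and lower in 0, with a median of 2.20. Over all tested satellite genes 6.33% were called higher and 5.36% lower. Postn, Lox and Col1a1 reached 100 CPM in TA labelled DMD alone, so their entry to the list favoured a call higher. Postn, which encodes periostin, stood at 21.1, 236, 7.7 and 6.79 CPM (interaction 3.06, 2.02 to 4.11), and Lox, which crosslinks collagen, at 9.05, 130.4, 65.4 and 43.0 CPM (interaction 3.39, 2.30 to 4.27). Ccn1, a matricellular gene, stood at 685, 2119, 411 and 271 CPM (interaction 2.20, 1.90 to 2.49). Lox and Ccn1 were higher with the DMD label in TA and lower in EOM. Col3a1 had 0, 450, 21 and 207 UMIs, at least 76.2-fold higher in TA against the limit of 3 counts in that library, and an interaction of 3.96 that depends on the 10 CPM added. Spp1, the osteopontin gene, had 0, 294, 20 and 149 UMIs, at least 49.8-fold higher in TA, and Ecm1 had 0, 111, 5 and 7, at least 18.8-fold higher, 50% of them in 2 cells. Mt3 had 0, 70, 12 and 18, at least 11.9-fold higher, likewise in 2 cells. Fibroblast markers summed to 2734, 4424, 2339 and 4711 CPM in the satellite gate, with Pdgfra, Lum, Col1a1 and Col3a1 at 0 in TA labelled WT. Most of each sum came from Dpt (1379, 1236, 1301 and 1995 CPM) and Gsn (1349, 1829, 821 and 1659 CPM), high in every library. Dcn stood at 3.02, 506, 80.8 and 707 CPM and Col1a1 at 0, 141, 84.7 and 67.9 CPM, so the sum hides how little TA labelled WT held of these. With the members of low gate specificity left out the list median was 1.74, and without cells of another gate or lineage Postn, Lox and Col3a1 had 2.96, 3.37 and 4.11. Col3a1 had 0.24 in cells gated by Chodl.

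Heat shock and differentiation genes gave the remaining satellite results. Hspa1b, an inducible chaperone, stood at 827, 451, 2061 and 288 CPM, lower with the DMD label in both muscles and more so in EOM (interaction 1.94, 1.65 to 2.22), the 1 called of 10 tested heat shock genes. Its highest library was EOM labelled WT. With 6.33% of all tested satellite genes called higher, 1 call says nothing particular about the heat shock list. Dhrs4, a retinal reductase gene, went opposite ways at 124, 55.2, 74.4 and 182 CPM (interaction -2.22, -2.92 to -1.51). Among 11 tested genes of myogenic activation and differentiation 6 were called lower and 1 higher, beside 5.36% and 6.33% of all tested genes. The list median was -2.35, but myofibre markers summed to 112, 369.7, 127 and 4652 CPM. Cox8b (-6.35) and the skeletal actin gene Acta1 (-2.76) had 50% of their UMIs in 1 and 2 cells of EOM labelled DMD. Without cells that held at least 2 UMIs of a myofibre gene the list median was 0.26 and the Acta1 value 1.42. Hba-a1, a haemoglobin gene, was called at 5.04, with 2 cells holding 50% of its UMIs in TA labelled DMD and a value of -0.72 without cells of another gate or lineage. 

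**Figure D4:**
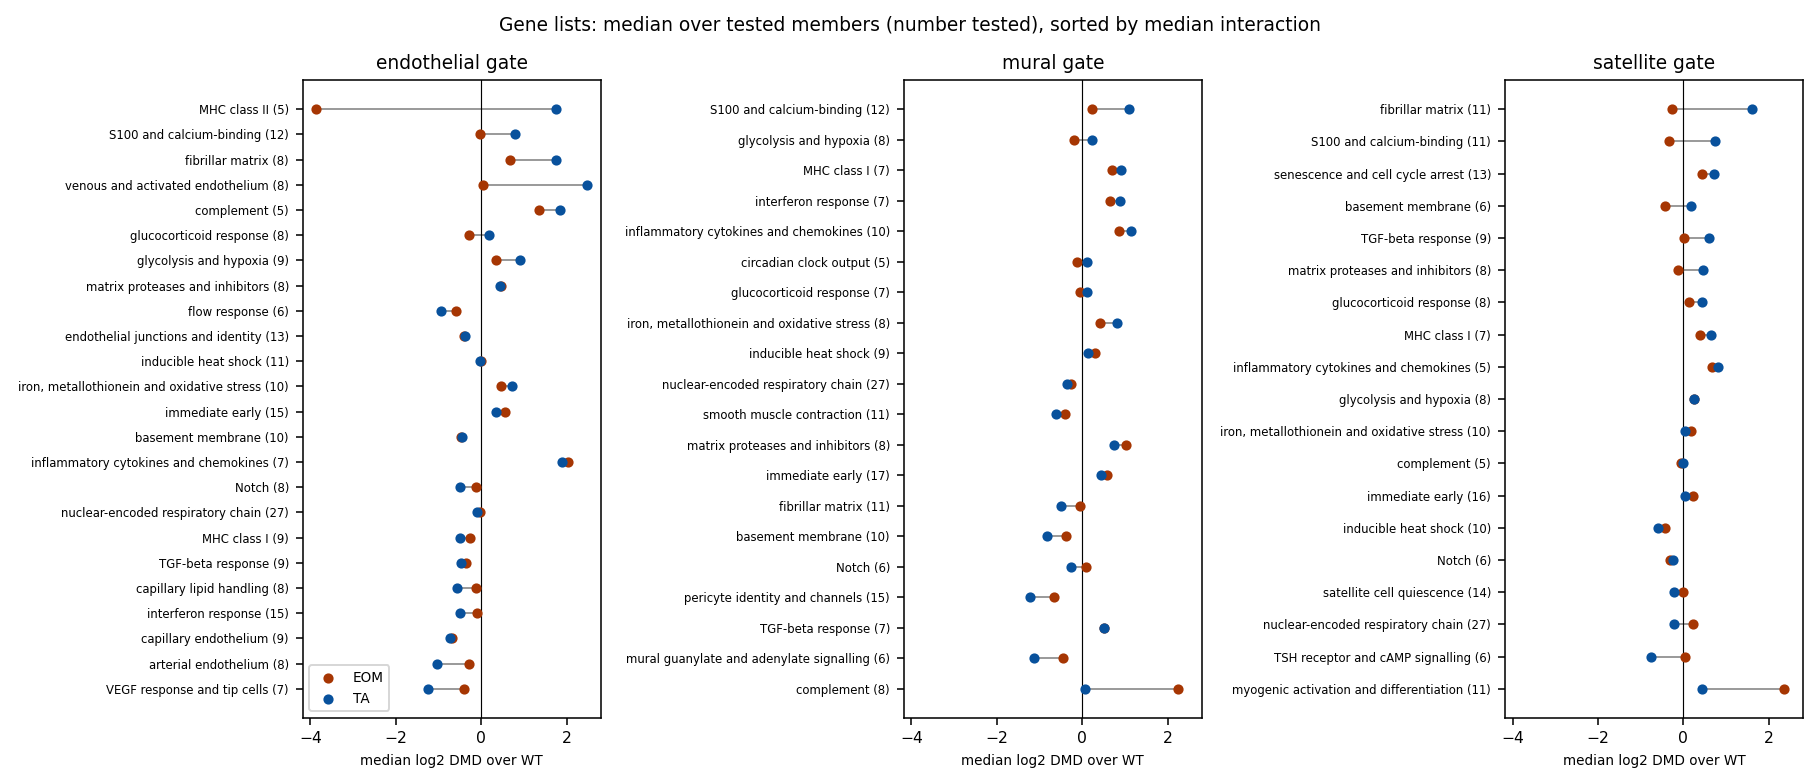
Median log2 ratio of DMD over WT in TA (blue) and in EOM (red-brown) for each gene list with at least 5 tested members, by gate, sorted by median interaction. The number tested is in parentheses, and among the endothelial lists the VEGF response list lies lowest, at -1.18. The interaction median is taken over genes, so it need not equal the gap between the points.

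A small set of genes was called the same way in all 3 gates, 7 higher and 6 lower. Higher in each were S100a4, Lgals3, Fgl2, Tyrobp, Vim, the ribosomal protein gene Rpl30 and AABR07031089.1. Lower in each were Acta1, Purb, Mbd2, the ribosomal protein genes Rpl37 and Rpl9, and AABR07002683.1. Support differed within the set. Tyrobp had 50% of its UMIs in 1 cell of EOM labelled WT in each gate and missed the limits for naming in all 3. S100a4 had 50% of them in 2 endothelial cells and 1 mural cell of EOM labelled WT, and Acta1 in 2 cells of its highest library in each gate. Fgl2 and Lgals3 lost their mural calls in the stricter gate, and in the satellite gate 4 cells held 50% of the Fgl2 UMIs. Vim had 0.80 in the stricter mural gate and 0.92 in satellite cells gated by Chodl. In endothelial cells it had 0.99 when scaled outside the 20 most abundant genes. Mural Mbd2 had -0.52 after thinning. All 13 genes were then looked at in the 598, 6073, 592 and 1501 kept cells that fell in no gate. There Lgals3 had an interaction of 2.73, Vim of 1.34, Rpl30 of 1.36 and Fgl2 of 1.18, and S100a4 had 0.52 and Tyrobp -1.68.

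Purb, a single-stranded nucleic acid binding repressor, and Mbd2, which binds methylated DNA, went opposite ways in every gate. Purb stood at 167, 57.8, 83.6 and 174 CPM in endothelial, 148, 67.7, 96.2 and 178 in mural and 187, 89.0, 104 and 214 in satellite cells, with interactions of -2.36, -1.84 and -1.97. Mbd2 stood at 84.8, 42.4, 49.6 and 121 CPM in endothelial cells (interaction -2.0, -2.39 to -1.61). In mural cells its levels were 117, 62.9, 77.9 and 155 CPM (interaction -1.70, -2.32 to -1.09) and in satellite cells 90.5, 46.0, 46.2 and 134 CPM (interaction -2.20, -3.0 to -1.41). In the cells of no gate the values were -2.02 for Purb and -1.68 for Mbd2. For both genes TA labelled WT and EOM labelled DMD were the higher libraries of their muscle in all 4 sets of cells. They share these libraries with each other, and a property of a library and one of its cells cannot be told apart with 1 library per group.

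**Figure D5:**
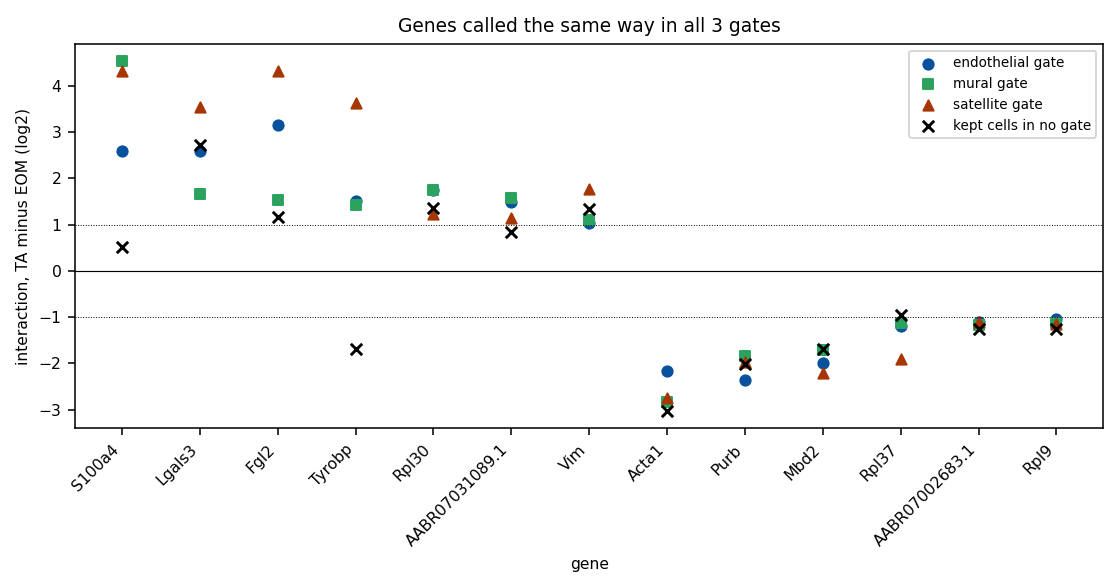
Interaction (log2, TA minus EOM) of the 13 genes called the same way in all 3 gates, with 1 symbol per gate and a cross for the kept cells in no gate. The dotted lines mark 1 in size. Purb, Mbd2, Rpl37 and Rpl9 lie below 0 in all 4 sets of cells, while Tyrobp is above 0 in the gates and at -1.68 outside them.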

How the data were processed

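Single-cell RNA was read from 4 libraries of rat muscle, 1 per muscle and disease state. The deposited values are UMI counts per gene and cell barcode for 25399 genes, written by Cell Ranger 4.0.0 per the file headers, on build rn6 per the submitters' processing notes. The aligner settings were not given in the sources used here.

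Barcodes with at least 500 UMIs, 200 genes and at most 20% mitochondrial UMIs were kept, which left 14233 cells of 3550, 8944, 1917 and 3093 barcodes. No doublet caller was run, and cells of a second gate or lineage were counted and left out as an alternative instead. Counts were summed per gate and library and scaled to CPM, with 10 CPM added before log2. Intervals are exact Poisson limits at 95%, combined by the square-and-add method. The total UMIs per library were 9955900, 20685086, 9468266 and 14953593, and gate sums ran from 331359 to 7593968. Thinning drew 1000 UMIs per cell and left out shallower cells. The scripts used Python 3.11.15, numpy 2.4.6, scipy 1.17.1, pandas 2.3.3 and matplotlib 3.10.9, and were tested on simulated data.

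Named genes were, per gate, the 8 with the highest and the 8 with the lowest interaction, the 4 most opposed between muscles, up to 6 per direction called in all 3 gates, the 2 largest of each list, and Dmd. They needed an interval leaving out 0, and in the highest library 5% of gated cells positive and 0.5 times the level outside the gate. Ribosomal protein genes (Rpl and Rps), genes known only by an identifier and symbols shared by several genes were left out of these choices. Those tested stayed in the counts, and some are listed among the genes called in all 3 gates. In endothelial cells LOC299282 (interaction 3.22) and MGC105649 (2.54) were left unnamed in this way. Other genes named were chosen after their values were seen. The members, lists and gates were chosen with earlier results of these data known. The 34 gene lists hold 601 entries, of which only tested members are counted. Alternatives changed the prior, filters, gates, scaling, cell weights and depth. A gate on Pecam1 was not run, since that symbol was not used here, and Cldn5 replaced it.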

Additional observations from a re-analysis of the deposited data

Results flagged for a closer look

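Among the genes chosen for naming, the muscles went opposite ways in 19 results, with counting intervals that left out 0 in each muscle. The 19 are not the full set. Among all called genes that met the limits on level and share of cells, opposite ways by at least 0.5 log2 units each were more frequent. They were 6 called higher and 7 lower in endothelial, 4 and 3 in mural, and 24 and 14 in satellite cells. None of these differences was tested, since each group has 1 library. In endothelial cells these were Purb (interaction -2.36), Ier5l (-2.13), Mbd2 (-2.00), Eif3el1 (1.67), Ldhb (-1.52) and Nrarp (-1.16). In mural cells they were S100a4 (4.53), Mt1 (2.02), Igfbp3 (-4.76), Purb (-1.84) and Mbd2 (-1.70). In satellite cells they were Hba-a1 (5.04), Cox8b (-6.35), Nr4a1 (-3.02), Dhrs4 (-2.22), Purb (-1.97), Mbd2 (-2.20), Lox (3.39) and Ccn1 (2.20). Mural S100a4 and Igfbp3 and satellite Cox8b had 50% of their UMIs in 1 cell of their highest library, and Hba-a1 in 2.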

How the results depend on the processing

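No paired analysis was possible because each group has 1 library, so no library was left out either. Over the settings 423 of 555 endothelial, 404 of 480 mural and 447 of 540 satellite values of the named genes stayed inside the counting interval of the value given above. Of the called values, 0 endothelial, 4 mural and 6 satellite ones changed sign. Settings that replaced the endothelial gate gene by Cldn5, left out cells with UMIs of named other lineages or myofibres, or asked for 5 cells were chosen after seeing the data.

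Counts are given as higher and lower. With a prior of 50 CPM they were 59 and 41 in endothelial and 34 and 39 in mural cells, with 79 higher in satellite cells. Without a filter on CPM they were 211 and 222, 311 and 394, and 521 and 366. At 300 CPM or more they were 47 and 27, 26 and 20, and 43 and 47. At most 10% mitochondrial UMIs gave 89 and 165 in mural cells, the Notch3 gate 160 and 167, and thinning 145 and 129. Thinning gave 200 and 198 in satellite cells. Asking that 5 cells hold 50% of the UMIs left 46 lower endothelial and 49 lower mural genes.

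The percent of called endothelial genes with the larger ratio in TA was 58.9 without a filter, 81.9 without cells of another gate or lineage, 80.3 with equal weights and 80.1 without cells with fibroblast, Schwann, MHC class II, mast or lymphatic UMIs. In mural cells it was 45 without a filter, 65.2 at 300 CPM and 42.5 at most 10% mitochondrial UMIs. In satellite cells it was 63.3 at 300 CPM, 78.8 in the Chodl gate, 81.4 without cells of another gate or lineage, 81.9 with equal weights, 79.0 without the 5% of deepest cells and 83.4 without cells with myofibre UMIs.

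The gates' shares of cells moved with the cell filter. At 1000 UMIs or more the endothelial share was 68.7% in TA labelled WT and 32.5% in TA labelled DMD, and the mural and satellite shares of TA labelled DMD were 11.3% and 2.56%. At most 10% mitochondrial UMIs gave endothelial shares of 68.0%, 24.8% and 42.0% in TA labelled WT, TA labelled DMD and EOM labelled WT, mural shares of 7.77%, 3.0% and 5.11% in TA labelled DMD, EOM labelled WT and EOM labelled DMD, and satellite shares of 1.42%, 8.03% and 8.24% in the same libraries.

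Values that changed sign were, in mural cells, S100a4 at -0.71 in the stricter gate, Mt1 at -1.84 in the Notch3 gate, Bmp4 at -0.0013 without cells of another gate or lineage, Angptl4 at -0.30 after thinning, and the TGF-beta list median at 0.42 without cells of another gate or lineage and 0.19 after thinning. In satellite cells Acta1 had 0.71 in the Chodl gate, 1.42 without cells of another gate or lineage and 1.42 without cells with myofibre UMIs. Hba-a1 had -0.52 in the Chodl gate and -0.72 without cells of another gate or lineage, and Cdkn1c -1.07 in the Chodl gate. The myogenic list median was 0.47 without cells of another gate or lineage and 0.26 without cells with myofibre UMIs, and the TGF-beta list median -0.045 at most 10% mitochondrial UMIs. As a difference of CPM, TA minus EOM, Chrdl2 had 7.13 and Tshr 5.79. The cause of these moves was not tested.

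The satellite gate of TA labelled WT held 46 cells, which limits every satellite result, and genes at 0 there have a lower bound only. Counting intervals do not cover differences between cells or animals.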
